A study of Mus musculus with 36 samples.

Results

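The clustered protocadherin genes were taken as all genes on mouse chromosome 18 whose symbol begins with Pcdha, Pcdhb or Pcdhg, and 25 of the 37252 annotated genes on the 19 autosomes and X met this rule. No gene with such a symbol lay elsewhere. Of the 25, 24 were protein-coding and Pcdhb20 was a pseudogene in the mm9 annotation. They lay in the order Pcdha, Pcdhb, Pcdhg between chr18:37089939-38001527 (mm9), a stretch of 912 kb. The Pcdhb cluster had 22 gene records, Pcdha had 2 and Pcdhg had 1.

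Repli-seq reads replication timing (RT) by labelling new DNA with BrdU, sorting cells from early and from late S phase, and sequencing the labelled DNA of each fraction. The series held 36 libraries in 7 groups, of which 2 groups stood behind the maps used. The first was CH12, a mouse B lymphoma line kept as 1 clone, infected with a lentivirus carrying a short hairpin against LacZ (shLacZ) as a control and stimulated through IL4, CD40 and TGF beta. The second was WT primary B cells (priB), activated splenic B cells with intact Rif1. Both groups had 2 replicates of an early and a late fraction. The authors merged the replicates and called states of early (E), intermediate (M) and late (L) replication along the chromosomes, so each condition had 1 map, with no replicate error and no test. A further deposited map, named for WT mouse embryonic fibroblasts (MEF), belonged to no labelled sample and is set beside the others as a map only. The maps held domain limits and a state number, and no RT value. The number given to M rested on which states never touch, and the numbers given to E and L on gene density.

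Clustered protocadherins are cadherin-type adhesion proteins of the neuronal surface. Neurons express different combinations of them, and matching between the combinations on apposed membranes underlies the avoidance of a neuron's own branches. In Pcdha and Pcdhg, variable first exons, each with its own promoter, are spliced to constant exons shared by the cluster, whereas Pcdhb genes stand alone and lack such constant exons. CTCF, cohesin and DNA methylation take part in the choice of promoter in neurons. B cells and fibroblasts are not the cells in which this choice is best known.

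No member started in an E domain in any of the 3 maps. Across all 22350 protein-coding genes, 50.6% of starts lay in E in CH12, 58.0% in priB and 58.6% in the MEF map. In CH12, 22 of 25 members started in L and 3 in M, beside 22.1% and 27.2% of all protein-coding genes. In priB, 14 members started in L and 11 in M, beside 12.9% and 29.1%. These counts depend on the annotation, which splits Pcdhb into 22 records but gives Pcdha as 2 and Pcdhg as 1. RefSeq lists 22 Pcdhb, 14 Pcdha and 22 Pcdhg symbols, so the counts lean to Pcdhb. Counted in 20 kb bins from the first to the last member, L took 48.9% in CH12, beside 49.8% of bins genome-wide, and 31.9% in priB, beside 39.0%. All bins outside L were M: 51.1% in CH12, beside 27.4% genome-wide, 68.1% in priB, beside 32.4%, and 100.0% in the MEF map, beside 38.7%. The bins of the locus thus held no larger a share of L than the genome, but a larger share of M. In priB, M led by this count and over every annotated transcript start (66.0%). In CH12, L took 59.6% of transcript starts, less than its share of member records. In the MEF map all 25 members started in M, beside 29.6%. The members lay side by side within 1 domain or a few, so they were not independent observations of a state, and the counts describe 1 locus.

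**Figure D1:**
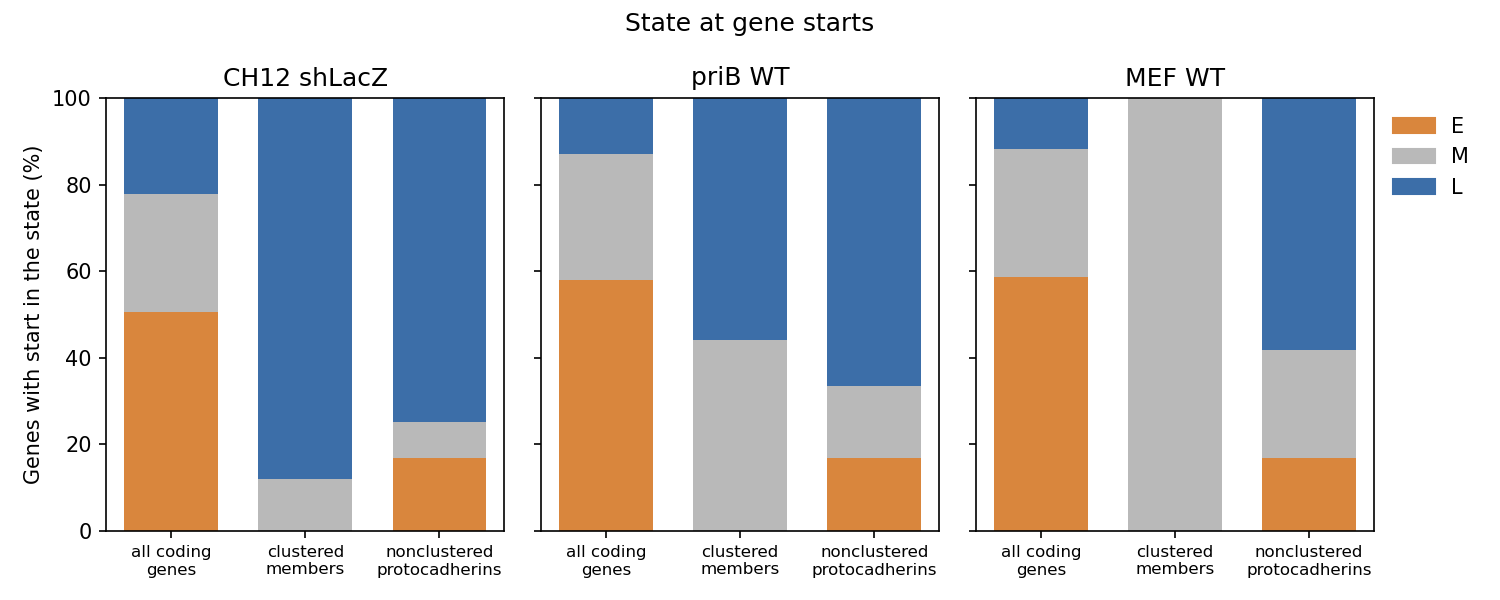
Share of gene starts in E, M and L (stacked, in percent) for all 22350 protein-coding genes, the 25 clustered members and 12 nonclustered protocadherins, in each map. The member bars hold no E in any map, are mostly L in CH12 (22 of 25), split between L (14) and M (11) in priB, and are wholly M in the MEF map. Pcdhb supplies 22 of the 25 member records, Pcdha 2 and Pcdhg 1.

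The 3 maps placed the members in 3 combinations of states. Pcdhb1 to Pcdhb14, 14 genes, were L in CH12, L in priB and M in the MEF map, a combination held by 3.88% of all protein-coding genes. Pcdhb15 to Pcdhb22, 8 genes, were L in CH12 and M in both other maps, beside 5.62%. Pcdha11, Pcdha3 and Pcdhgc5 were M in all maps, beside 10.8%. By gene start, all Pcdhb genes shared 1 state in CH12, and the cluster was split between 2 in priB.

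In both B cell maps the L state covered all or part of Pcdhb and the DNA before it, and was bordered by M and then E on each side. It began 205.0 kb before Pcdhb1 in CH12 and 105.0 kb before it in priB. In CH12 the order along the chromosome was an E domain of 2580 kb, an M domain of 260 kb (chr18:36960001-37220000), an L domain of 460 kb (chr18:37220001-37680000), an M domain of 360 kb (chr18:37680001-38040000) and an E domain of 660 kb. In priB it was E over 2860 kb, M over 280 kb (chr18:37040001-37320000), L over 300 kb (chr18:37320001-37620000), M over 480 kb (chr18:37620001-38100000) and E over 1820 kb. The priB L domain lay inside the CH12 one and was no longer than the 300 kb span over which the authors smoothed RT. In the MEF map 1 M domain of 980 kb (chr18:37040001-38020000) filled the whole stretch between E domains of 2880 kb and 2140 kb.

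**Figure D2:**
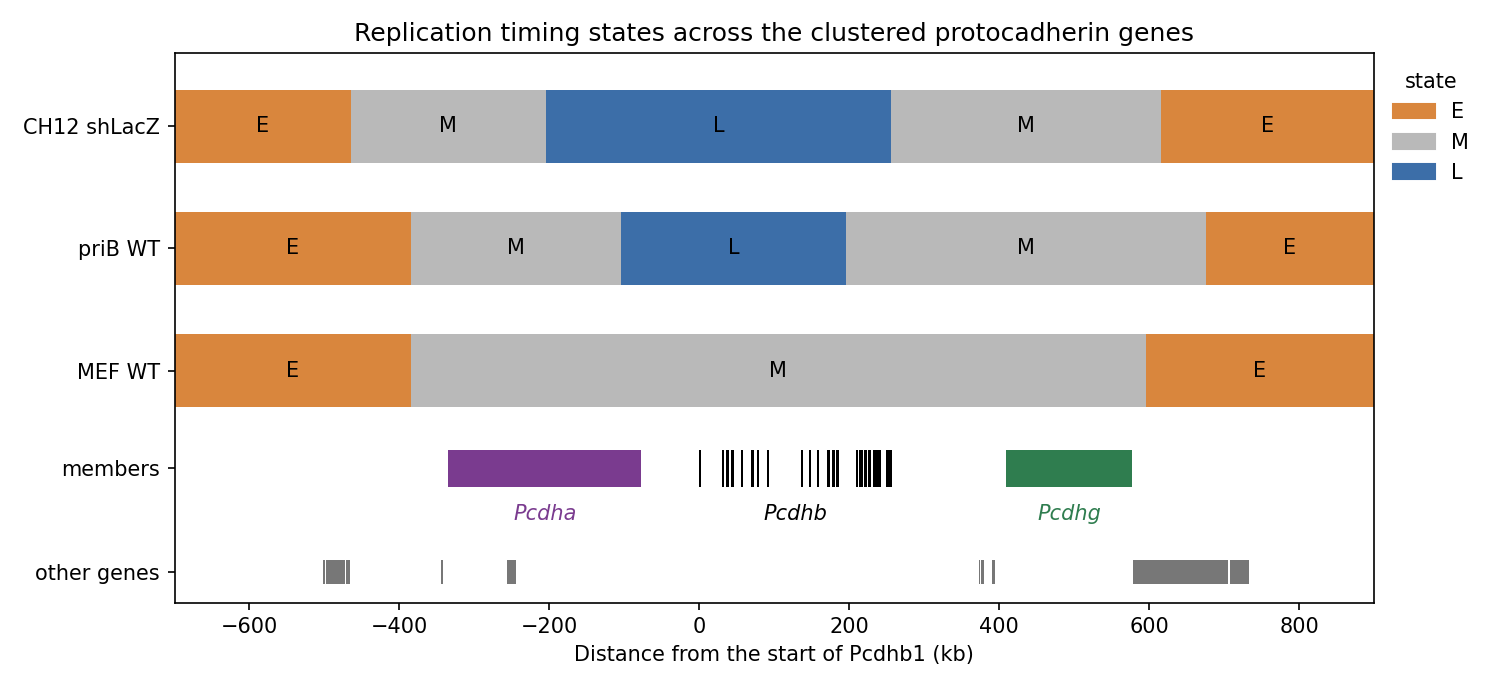
Domains of the 3 maps (E, M and L, coloured and lettered) against distance from the start of Pcdhb1 in kb, with the 25 members and the protein-coding neighbours drawn below to scale (the shortest genes are widened to be seen). Blue L covers Pcdhb in CH12 and its first part in priB, and the MEF map shows 1 grey M domain over all members.

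The outer limits of this non-E stretch lay close together in the 3 maps. The E domain before Pcdha ended between position 36960000 and position 37040000, and the E domain after Pcdhg began beyond position 38020000 to 38100000, a spread of 80 kb on each side. With the tolerance set at this same 80 kb after the values were seen, 14.7% of the 1105 edges of E domains in CH12 had an edge of the same orientation in both other maps. The share was 12.0% of 1315 edges in priB and 12.9% of 1130 edges in the MEF map. Each other map's edge could lie up to 80 kb away on either side. The 3 edges of a counted set could thus spread by more than 80 kb, a looser rule than the spread at the locus. The stretch measured 1080 kb in CH12, 1060 kb in priB and 980 kb in the MEF map. Its makeup differed more than its length: 23 of its 20 kb bins were L in CH12, 15 in priB and 0 in the MEF map.

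Over the 57 bins that lay outside E in at least 1 map, CH12 and priB had the same state in 42 (73.7%). CH12 was in the later state in 12 bins (21.1%) and priB in 3 (5.26%). Genome-wide the maps had the same state in 76.1% of bins, with CH12 later in 20.3% and priB in 3.62%. These shares include bins that were E in all maps, which the locus set leaves out by definition. The shares of the locus and of the genome are thus over unlike sets. In all, 15 bins were L, L and M in CH12, priB and MEF in turn, a combination of 10.6% of bins genome-wide. A further 8 bins were L, M and M, beside 8.1%, and 26 were M in all maps, beside 10.9%. Hence the combinations seen at the Pcdhb genes were less frequent among gene starts than among bins of the genome at large.

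The Pcdha cluster lies first along the chromosome and joins variable exons to a common constant region. The annotation gave most of it as 1 record, Pcdha11 (ENSMUSG00000007440.7, chr18:37089939-37347311), and 1 single-transcript record, Pcdha3 (chr18:37105801-37108685), although RefSeq lists 14 Pcdha symbols. The Pcdha11 record had 10 distinct transcript starts, which stand in for the variable exons but carry no exon names here. In CH12, 8 of these starts were in M and 2, at positions 37249790 and 37303623, were in L. All 10 were in M in priB and in the MEF map. The end of the Pcdha11 record lay in the L domain of CH12 and priB, so a cluster labelled M by its first start reached into L at its constant end. Pcdha3 started in M in all maps. The starts of Pcdha11 and Pcdha3 lay 130.0 kb and 146.0 kb from the nearest E domain in CH12, and 49.9 kb and 65.8 kb in both priB and the MEF map.

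Pcdhb genes were the members in L. Apart from the pseudogene Pcdhb20, each encodes a whole protocadherin, in most cases from a single exon. Of the 22 records, 18 had no more than 1 exon. All 22 lay on the plus strand between chr18:37424652-37681073. Gene lengths ran from 2457 to 7131 bp with a median of 3472 bp, and starts were spaced by a median of 7.67 kb with 1 gap of 45.8 kb, between Pcdhb8 and Pcdhb9. The first, Pcdhb1 (ENSMUSG00000051663.3), lay at chr18:37424652-37427108 and the last, Pcdhb22 (ENSMUSG00000073591.2), at chr18:37678007-37681073.

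In CH12 the cluster occupied the second part of the L domain. Pcdhb2 lay deepest, 226.0 kb from the nearest edge, and Pcdhb22 was nearest to one, at 1.99 kb, with its body running across the L to M edge. Of the 22, 12 started within 100 kb of an edge. In priB the L to M edge fell between Pcdhb14, which started 12.7 kb inside L, and Pcdhb15, which started 13.2 kb inside M. No annotated Pcdhb gene lay across it: Pcdhb14 ended at position 37610748 and Pcdhb15 began at position 37633200, on either side of position 37620000. Pcdhb4 lay deepest in priB L, at 147.0 kb. Since the authors smoothed RT over 300 kb, and all 25 members lay within 300 kb of an edge in CH12 and in priB, the gene at which the state changes was not resolved.

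Pcdhb genes were also the members farthest from E, which follows from their place between Pcdha and Pcdhg in a stretch with E on both sides. Pcdhb starts lay 362.0 to 539.0 kb from the nearest E domain in CH12, 385.0 to 529.0 kb in priB and 342.0 to 475.0 kb in the MEF map. The ranges of the 3 maps overlapped, as follows from E edges that spread by 80 kb on each side. The farthest gene was Pcdhb7 in CH12, Pcdhb10 in priB and Pcdhb8 in the MEF map.

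The Pcdhg cluster lies last and shares its constant exons among variable exons of the gamma-A, gamma-B and gamma-C types. It was given as 1 record, Pcdhgc5 (ENSMUSG00000023036.7, chr18:37833989-38001527), where RefSeq lists 22 symbols. Its 10 distinct transcript starts were all in M in CH12, in priB and in the MEF map. The record start lay 206.0 kb from the nearest E domain in CH12, 266.0 kb in priB and 186.0 kb in the MEF map. The end of the record lay 38.5 kb before the following E domain in CH12, 98.5 kb in priB and 18.5 kb in the MEF map.

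Genes that lie among the members but do not belong to them take, by construction, the state of the domain at their start. Between Pcdhb and Pcdhg, Slc25a2, a mitochondrial ornithine carrier, Taf7, a subunit of the general transcription factor TFIID, and 3222401L13Rik were M in all maps. Gm10545, inside the Pcdha11 record, was M in all maps, and the long noncoding Gm10544, near its end, was L in CH12, L in priB and M in the MEF map. The snoRNA SNORA40 and the long noncoding Gm16882, inside the Pcdhgc5 record, were M in all maps.

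The flanks were early. Before Pcdha, Dnd1, an RNA-binding protein of germ cells, the histidyl-tRNA synthetases Hars and Hars2, and Zmat2, a zinc finger protein of the spliceosome, were E in all maps, and Gm6756, 9.66 kb before the first member, was M in all maps. After Pcdhg, the histone deacetylase Hdac3 and the genes Rell2, Fchsd1 and Arap3 were E in all maps. Diap1, an actin-nucleating formin, was E in CH12, M in priB and E in the MEF map. Its start lay 93.6 kb beyond the last member, and it was the only one of these 10 flanking genes whose state differed between maps.

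An L domain between 2 M domains that each border E was found 169 times in CH12 (22.5% of 750 L domains) and 200 times in priB (30.1% of 664). Their lengths had medians of 980 kb (CH12) and 860 kb (priB), and 129 and 171 of them were longer than the one at Pcdhb. The median number of coding starts was 3 in CH12 and 2 in priB, whereas the domain at Pcdhb held 21 in CH12 and 14 in priB. More starts were held by 9 domains in CH12 and 15 in priB. In the MEF map an M domain between E domains occurred 309 times (28.5% of 1083 M domains) and measured 740 kb at the median. The one at the members held 29 starts, 6 others held more, and 102 were longer. The length and gene number of this locus were thus inside the range of such domains in each map, toward the many-gene end. In CH12 and priB the starts counted at Pcdhb were all those of members, and in the MEF map the 29 included the 24 protein-coding members. Since the members were chosen as a gene array, the many-gene rank restates that choice.

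**Figure D3:**
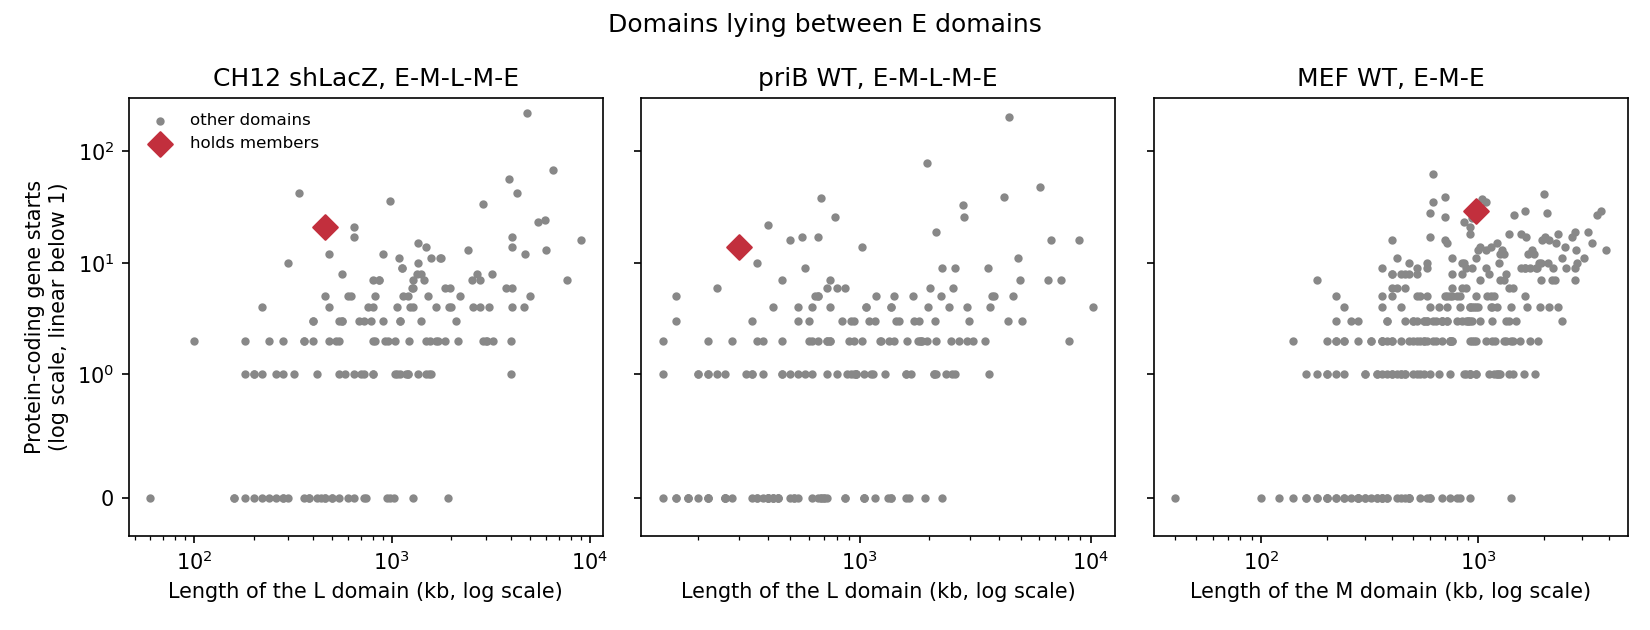
Length in kb (log scale) against the number of protein-coding gene starts (log scale, linear below 1) for each L domain in E-M-L-M-E order in CH12 and priB, and each M domain in E-M-E order in the MEF map. Red diamonds mark the domain holding members, with 21 starts in 460 kb in CH12, 14 in 300 kb in priB and 29 in 980 kb in the MEF map, near the upper edge of the points at their lengths. In CH12 and priB the starts in the marked domain are all those of members.

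Over all L domains, protein-coding starts were sparse, and the domain at Pcdhb was dense. Its coding starts were all those of members: 21 in CH12, where 22 members with the pseudogene Pcdhb20 started, and 14 in priB. The members were chosen as a gene array, so this density and its rank restate that choice. The domain at Pcdhb held 45.7 starts per Mb in CH12, where L pooled over the genome held 3.76 and the median L domain 2.56. In priB it held 46.7, beside 2.88 pooled and a median of 1.72. Denser L domains numbered 5 of 750 in CH12 and 3 of 664 in priB. Density is not independent of the names of the states, since E and L were told apart by it genome-wide. The median L domain was 1100 kb in CH12 and 900 kb in priB, and 146 and 101 L domains were shorter than the one at Pcdhb; how density varies with length was not tested.

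Overlapping L domains of the E-M-L-M-E order formed 98 pairs between CH12 and priB. Of these shared stretches, 32 were wholly M in the MEF map, as at Pcdhb, 12 wholly L and 4 wholly E. With a minimum of 10 protein-coding starts, chosen after the values were seen, 9 stretches remained. Pcdhb was the 1 of these with no L bin in the MEF map, and this depends on the minimum: a stretch with 9 starts at chr7:27020001-27600000, holding Vmn1r, Cyp2 and Nlrp genes, was M in all of its 29 bins. Without a minimum, 43 of the 98 pairs had no L bin. Of the other 8 stretches, 4 were wholly L in the MEF map and the lowest share of L bins was 71.8%, and 6 held olfactory or vomeronasal receptor genes, which are also arrays of related genes.

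Mean CpG content was higher in each cluster than in any state, though not in every bin. The ratio of observed to expected CpG averaged 0.283 ± 0.147 (SD over 14 bins of 20 kb) in Pcdha, 0.257 ± 0.0643 (14 bins) in Pcdhb and 0.351 ± 0.136 (10 bins) in Pcdhg. The CH12 means over the genome were 0.22 ± 0.0596 for E bins, 0.196 ± 0.0598 for M bins and 0.159 ± 0.0506 for L bins. In Pcdha it was uneven, from 0.126 to 0.554 with a median of 0.235. Of its 14 bins, 8 exceeded the M mean and 7 the E mean. In Pcdhb 11 of 14 bins exceeded the E mean, and in Pcdhg 7 of 10, the highest at 0.588. Within Pcdhb gene bodies the ratio ran from 0.283 in Pcdhb16 to 0.493 in Pcdhb17, with a median of 0.403, and in Pcdha3 it was 0.657. Every Pcdhb gene body lay above the genome-wide E mean. Neighbouring bins are not independent, and exons are in general richer in CpG than the DNA around them, so gene bodies and 20 kb bins are not alike in kind.

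GC content was similar in Pcdha and Pcdhb and higher in Pcdhg. It averaged 40.4 ± 2.39% in Pcdha, 40.3 ± 1.05% in Pcdhb and 45.3 ± 2.7% in Pcdhg. E bins of CH12 averaged 45.7 ± 3.97% over the genome, M bins 42.8 ± 3.37% and L bins 39.4 ± 2.88%. Pcdha and Pcdhb thus lay within 1 SD of both the L and the M mean, and Pcdhg within 1 SD of both the M and the E mean. Pcdhb gene bodies ran from 41.2% in Pcdhb19 to 51.9% in Pcdhb8 with a median of 47.0%, and 21 of 22 were richer than every bin they touch, Pcdhb19 being the exception. Pcdhb was L in CH12, L in part in priB and M in the MEF map over this same DNA.

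**Figure D4:**
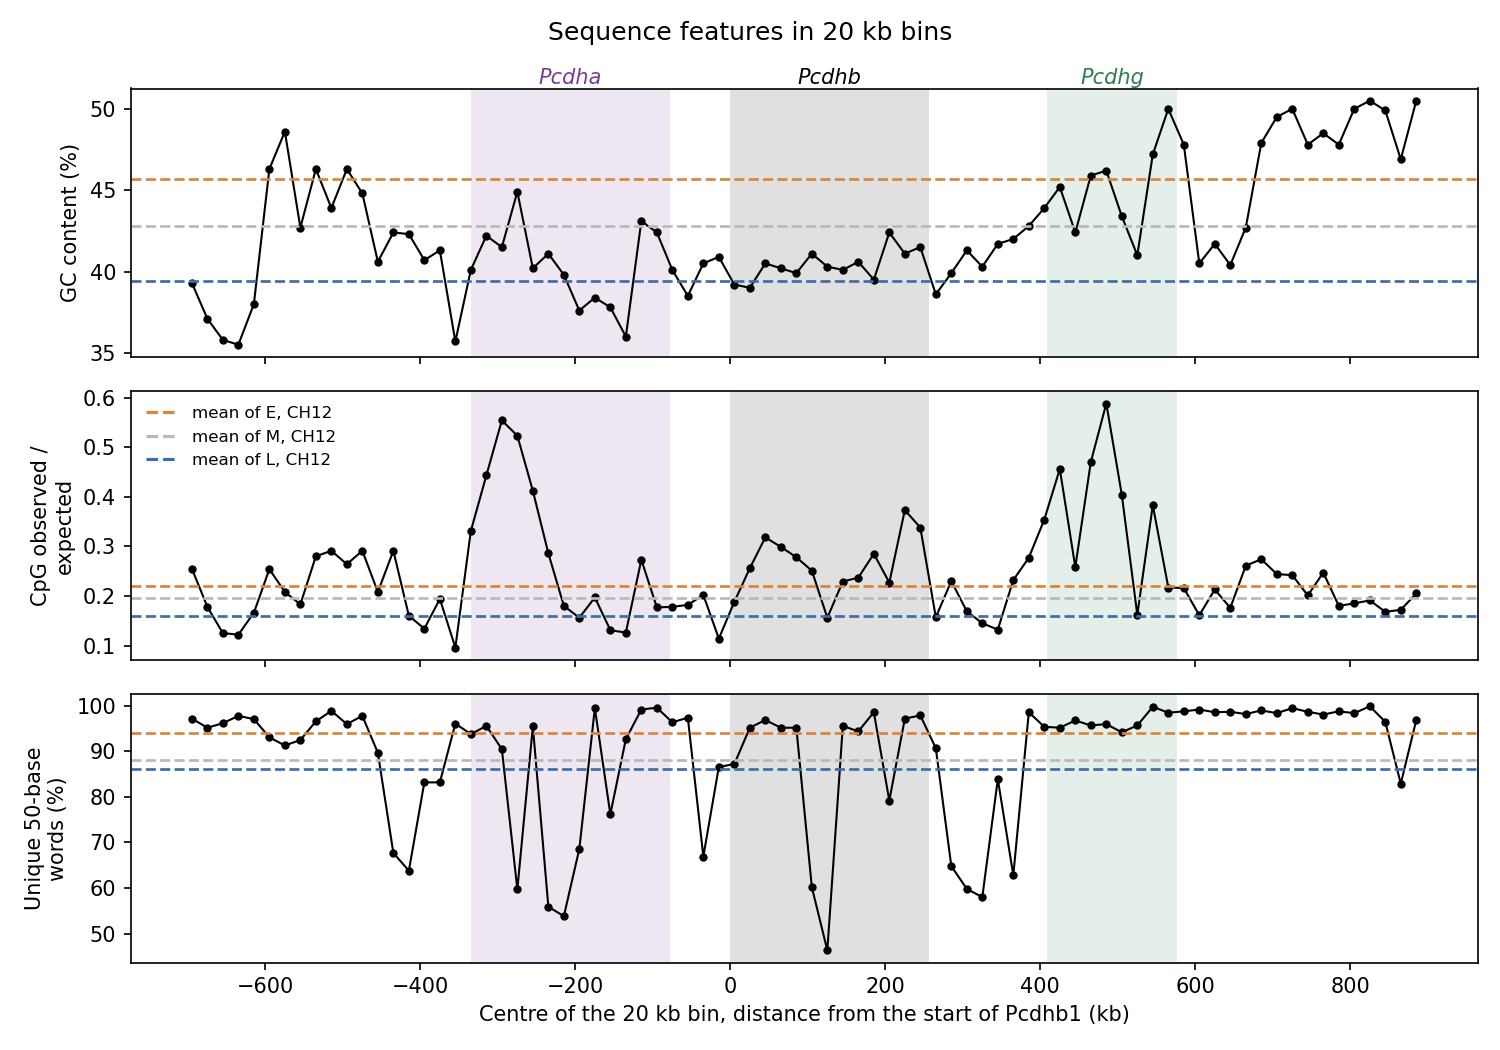
GC content in percent, observed over expected CpG, and share of 50-base words that occur once in the genome in percent, per 20 kb bin against distance from the start of Pcdhb1 in kb. Shading marks the clusters and dashed lines the genome-wide means of E, M and L in CH12; CpG peaks at 0.554 in Pcdha and 0.588 in Pcdhg, and GC stays near the L mean over Pcdhb.

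Members of a cluster resemble each other in sequence, and the authors kept only reads that align uniquely. Of the 50-base words in the Pcdhb gene bodies, between 88.2% (Pcdhb12) and 100.0% (Pcdhb1) occurred once in the genome, with a median of 96.15%. Over 20 kb bins the share was 84.1% in Pcdha, 87.8% in Pcdhb and 96.6% in Pcdhg, beside 94.1% for E bins, 88.2% for M bins and 86.2% for L bins of CH12. The lowest bin of the locus, at 46.3%, lay in the gap between Pcdhb8 and Pcdhb9 and was L in CH12 and priB. Whether read loss moved the state of any bin was not tested, since the maps hold no read counts.

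The nonclustered protocadherins, related adhesion genes each with its own locus, were spread over 6 chromosomes. Over all protein-coding genes, L held 22.1% of starts in CH12, 12.9% in priB and 11.9% in the MEF map. E held 50.6%, 58.0% and 58.6%. Of the 12 nonclustered genes, 9 were L in CH12, 8 in priB and 7 in the MEF map, and 2 were E in every map. Those 2, Pcdh1 (chr18:38345569-38371707) and Pcdh12 (chr18:38426746-38444055), are the nearest to the clusters and lay in the E domain after Pcdhg in all maps. Pcdh18 alone had the combination of Pcdhb1 to Pcdhb14, and Pcdh19 alone that of Pcdhb15 to Pcdhb22. Pcdh8 was M in all maps, as were Pcdha11, Pcdha3 and Pcdhgc5. Pcdh7, Pcdh9, Pcdh10, Pcdh11x, Pcdh15, Pcdh17 and Pcdh20 were L in all maps. Pcdh1 and Pcdh12 share a domain, and Pcdh8, Pcdh9, Pcdh17 and Pcdh20 lay on chromosome 14, so the genes were not independent loci.

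Among 19 cadherins of a fixed list, calcium-dependent adhesion genes, 12 were L in CH12, 13 in priB and 8 in the MEF map. Of all protein-coding starts, L held 22.1%, 12.9% and 11.9% in these maps. Cdh6, Cdh7, Cdh8, Cdh9, Cdh10, Cdh19 and Cdh20 were L in all maps. The L, L and M combination of Pcdhb1 to Pcdhb14 was held by Cdh2 (N-cadherin), Cdh4 (R-cadherin), Cdh11 (the osteoblast cadherin), Cdh13 (T-cadherin) and Cdh18. Among all protein-coding genes, 3.88% had that combination. Some of these cadherin genes share a domain, as Cdh8 and Cdh11 do in CH12 and priB, so the counts are not of independent loci. Cdh1 (E-cadherin), Cdh3, Cdh15, Cdh22 and Cdh24 were E in all maps.

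Of 15 genes found whose products act on the choice of protocadherin promoter, 10 were E and 5 M in CH12, 11 E and 4 M in priB, and 10 E and 5 M in the MEF map. Over all protein-coding genes, E held 50.6%, 58.0% and 58.6% of starts in these maps and L held 22.1%, 12.9% and 11.9%. Ctcf, the cohesin subunit gene Smc3, the DNA methyltransferase Dnmt3b, Smchd1 and the histone methyltransferase Setdb1 were E in all maps. Nipbl, which loads cohesin, and the cohesin subunit gene Rad21 were M in all maps. Of 12 genes for partners and signalling, 5 were E, 5 M and 2 L in CH12, 6 E and 6 M in priB, and 8 E, 3 M and 1 L in the MEF map. Nckap1, of the WAVE complex that regulates actin, was L in CH12, M in priB and E in the MEF map.

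The Hox genes are another family in compact arrays. Among all protein-coding genes, E, M and L held 50.6%, 27.2% and 22.1% of starts in CH12, and 58.0%, 29.1% and 12.9% in priB. In the MEF map the shares were 58.6%, 29.6% and 11.9%. Of 40 Hox records (39 symbols), 9 were E and 31 M in CH12, 31 E and 9 M in priB, and all 40 E in the MEF map, with none in L. In CH12 most Hox genes thus had the state of Pcdha11, Pcdha3 and Pcdhgc5, and in the MEF map none had the state of a member. Keratin and keratin-associated genes were mixed, with 31 E, 35 M and 31 L of 97 in CH12, 24, 54 and 19 in priB, and 49, 29 and 19 in the MEF map. As at the protocadherin locus, the members of these arrays share domains, and their counts are descriptions of few loci.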

How the data were processed

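Per the labels and methods, the authors trimmed reads with Trim Galore 0.6.5, aligned them to mm9 with BWA 0.7.17, kept unique alignments with SAMtools 1.9, merged replicates, removed duplicates, computed log2 early over late reads in 20 kb windows with deepTools, smoothed them by loess over 300 kb and called 3 states with a hidden Markov model. Versions are those of the submitters' processing notes. The deposited maps give chromosome, start, end and state number, without depth, RT values or replicates. Merging removes replicate spread, and smoothing blurs edges.

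In CH12 and priB, 2 was read as E, 1 as M and 0 as L, and in the MEF map 0, 2 and 1. Chromosome ends matched NCBIM37 (mm9) for 20 of 20 chromosomes in each map. Genes were from GENCODE M1, placed by their start on their own strand. RefSeq (GRCm38.p6) gave symbols only. Named genes were the first and last member of each cluster, members differing in state from their cluster, members nearest and farthest from edges, the 5 nearest coding genes per side, genes between members, and list genes by state. The members and lists were chosen with earlier results of these data known. Words of 50 bases were counted over both strands of the reference, and map functions were tested on simulated maps. Python 3.11.15, numpy 2.4.6, pandas 2.3.3 and matplotlib 3.10.9 were used. The other 5 groups were not analysed here, and 0 columns of other samples were left over. No sequence of this locus is shown.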

Additional observations from a re-analysis of the deposited data

How the results depend on the processing

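No paired analysis was possible because each condition had a single map, made from merged replicates, and so no replicate could be left out. All 18 list counts stayed within 1.5 times of the reported ones when genes were placed by their middle. No state share of members changed when genes were placed by their middle or by most of their bases, when states were joined across 40 kb, or when domains under 100 kb were dropped. In 20 kb bins from the first to the last member, L made up 48.9% and M 51.1% in CH12, and 31.9% and 68.1% in priB. Over every transcript start, chosen after seeing the data, these were 59.6% and 40.4% in CH12, and 34.0% and 66.0% in priB. Among members at least 100 kb from an edge, L and M made up 76.9% and 23.1% of 13 in CH12, and 88.9% and 11.1% of 9 in priB. The MEF map stayed at 100.0% M under each alternative. In priB, M led over bins and transcript starts, whereas in CH12 L led over transcript starts and was level with M over bins. Members share domains, so no interval over them measures stability.

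The background moved with its choice. With all gene types, E was 44.8% and L 28.4% in CH12, E 51.7%, M 30.9% and L 17.4% in priB, and E 51.8% and M 31.9% in the MEF map. On autosomes only, E was 51.8% and L 21.3% in CH12, E 59.2% and M 28.2% in priB, and E 61.1% and M 27.9% in the MEF map. On chromosome 18, E, M and L were 33.8%, 39.7% and 26.5% in CH12 and 44.3%, 41.0% and 14.7% in priB, with E 53.4% and M 41.2% in the MEF map. In 20 kb bins, E was 22.7% and L 49.8% in CH12, E 28.6%, M 32.4% and L 39.0% in priB, and E 30.7% and M 38.7% in the MEF map. Shared edges of E domains were 4.69% to 5.25% at 40 kb and 16.2% to 18.1% at 100 kb, tolerances chosen after seeing the data.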
